A study of Caenorhabditis elegans with 9 samples.

Results

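The eggshell and egg activation genes are 10 genes whose products build the shell of the C. elegans embryo or switch the fertilized oocyte into an embryo. They were chosen by symbol (chs-1, cbd-1, cpg-1, cpg-2, egg-1, egg-2, egg-3, egg-4, egg-5 and mbk-2) among 46926 annotated genes. All 10 matched 1 gene identifier each, and all 10 were among the 17512 genes with enough counts to be tested. Poly(A) RNA was sequenced from whole bodies of the nematode Caenorhabditis elegans in 9 libraries, with 3 libraries under each of the labels WT, UNC5 and PATR1. The series' design text describes synchronized young adults of the wild type and of unc-5(Cys348*) mutants, animals with a stop codon in a netrin receptor gene. It says nothing of PATR1, and no label ties the stop allele to the UNC5 or the PATR1 group. Below, UNC5 and PATR1 are called the mutant groups for short, a name that states no genotype. No transgene, treatment or background allele is named for any group. Each library is RNA of a pool of animals, and whether replicates came from separate cultures is not stated, so the p-values below cover no more than library-to-library spread, part of which may be technical.

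In this nematode the oocyte carries most eggshell components before it meets the sperm. From the outside in, the shell has a vitelline layer, a chitin layer and a layer of chondroitin proteoglycans. Once sperm enters, the cortical granules empty and the shell is completed. At the same time a protein kinase, released from the oocyte cortex, marks maternal proteins for destruction so that embryonic development can start. The RNAs of these genes are made in the germline and stored in the growing oocytes.

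Between 38673206 and 60642199 reads per library were counted to genes on the sequenced strand. The members had from 2744 to 108277 counts per library. Counting error is part of the spread between libraries, of which pairs within a group showed 1.44 to 2.24 times what counting alone gives (median chi-square over genes). Levels are given as CPM (a gene's counts scaled to a fixed library total, after TMM factors). unc-5 itself stood at 16.7 to 18.4 (WT), 9.88 to 10.3 (UNC5) and 12.75 to 13.8 CPM (PATR1). The 10 markers of a whole adult were all detected, and all 10 differed between UNC5 and WT, in both directions. col-19, a collagen gene of the adult cuticle, had 894 ± 7.44 (WT), 331 ± 5.35 (UNC5) and 777 ± 7.22 CPM (PATR1). rol-6, another cuticle collagen gene, rose 2.47-fold in UNC5, and myo-2, a pharyngeal myosin gene, fell to 0.52 of its WT level. vit-2, a yolk protein gene, stood at 0.634 of its WT level in UNC5 and at 1.503 of it in PATR1. The unmapped share was 0.621% to 0.629% in WT, 0.667% to 0.937% in UNC5 and 2.86% to 6.02% in PATR1. Each value that follows as a mean ± SD is over 3 libraries.

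All 10 genes were higher in both mutant groups than in WT, and higher in PATR1 than in UNC5. The summed level of the 10 was 3425 to 3598 CPM in the WT libraries, 5978 to 6015 CPM in UNC5 and 7319 to 7406 CPM in PATR1. Against WT, the fold of single genes ran from 1.34 to 1.92 in UNC5 and from 1.53 to 2.27 in PATR1. For each of the 10 genes, the 3 libraries of each mutant group lay above all 3 WT libraries, and the PATR1 libraries lay above the UNC5 libraries. Such separation upwards was also seen for 50.4% of tested genes for UNC5 and 38.8% for PATR1 against WT, and for 38.3% in PATR1 against UNC5. In that last comparison 41.3% of tested genes were apart in the other direction, none of them a member.

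**Figure D1:**
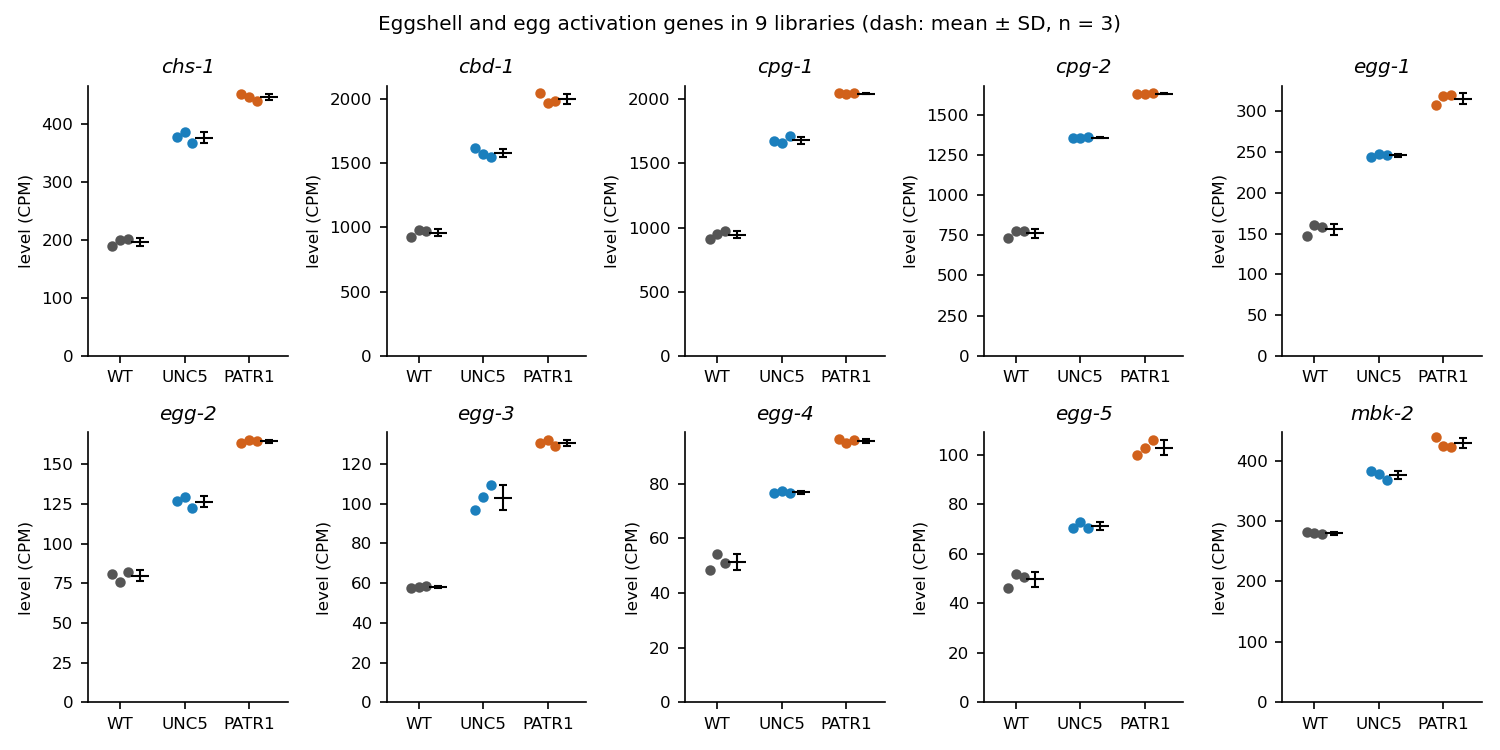
Level of each of the 10 genes in CPM in the 9 libraries, 1 panel a gene, with points for libraries and a dash and bar for the mean ± SD of 3 libraries. In every panel the WT libraries are lowest and the PATR1 libraries highest, as for chs-1 with 196 ± 6.72 (WT), 376 ± 9.32 (UNC5) and 446 ± 5.89 CPM (PATR1).

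The genes of the shell itself were described first, beginning with chs-1 (WBGene00000496, WBcel235 chromosome I, 7554855 to 7559916, plus strand), the chitin synthase that makes eggshell chitin. It had WT values of 189, 199.7 and 201 CPM, UNC5 values of 376, 385 and 367 CPM and PATR1 values of 451, 447 and 439.7 CPM. The groups did not overlap, and the step from WT to UNC5 was larger than that from UNC5 to PATR1. The log2 fold change was 0.94 ± 0.033 (SE of the fit) in UNC5 and 1.18 ± 0.033 in PATR1, the highest of the 10 genes in each (edgeR adjusted p = 2.4e-22 and 5.8e-25). Between the mutant groups it was 0.25 ± 0.032 (edgeR adjusted p = 4.1e-08). Its exons share 5 bases with those of another gene on the same strand, T25G3.3.

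cbd-1 (WBGene00010351, chromosome IV, 11372991 to 11377627, plus strand) encodes a chitin-binding protein of the vitelline layer, the outermost layer of the shell. Its levels were 927, 976 and 973 CPM in WT, 1614, 1569 and 1549.8 CPM in UNC5, and 2044, 1968 and 1981 CPM in PATR1. Both mutant groups were clear of WT, with log2 fold changes of 0.72 ± 0.036 in UNC5 and 1.06 ± 0.036 in PATR1 (edgeR adjusted p = 2.7e-18 and 1.1e-22). The PATR1 libraries were 1.27-fold higher than the UNC5 libraries (log2 fold change 0.34 ± 0.035, edgeR adjusted p = 3e-10).

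cpg-1 (WBGene00000465, chromosome III, 4489359 to 4491392, plus strand) and cpg-2 (WBGene00015102, chromosome III, 7102092 to 7103990, minus strand) encode chondroitin proteoglycans with chitin-binding domains, which form the inner proteoglycan layer. For cpg-1 the libraries held 914, 950.2 and 970.5 CPM in WT, 1672, 1661 and 1713 CPM in UNC5, and 2044, 2039.9 and 2045 CPM in PATR1. For cpg-2 they held 732, 776 and 776 CPM in WT, 1356, 1354 and 1361 CPM in UNC5, and 1630.2, 1627 and 1633 CPM in PATR1. The pair had close fold changes: both had a log2 fold change of 0.83 ± 0.035 in UNC5, and in PATR1 cpg-1 had 1.11 ± 0.035 and cpg-2 1.10 ± 0.035 (largest edgeR adjusted p of these 4 tests 3.5e-20). The ratio of cpg-1 to cpg-2 counts was 1.24 ± 0.0145 in WT, 1.24 ± 0.0168 in UNC5 and 1.25 ± 0.00085 in PATR1. The ratio did not differ beyond its spread between UNC5 and WT (exact two-sided permutation test, p = 1), and it was higher without overlap in PATR1 than in WT by 0.01 on the log2 scale (exact p = 0.1, the smallest that 3 against 3 libraries can give).

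The next group sits in the oocyte membrane and cortex. egg-1 (WBGene00015083, chromosome III, 5728180 to 5730159, plus strand) and egg-2 (WBGene00019811, chromosome III, 7058527 to 7060583, minus strand) encode membrane proteins with LDL receptor repeats that the oocyte needs to be fertilized. egg-1 had WT values of 147, 160.3 and 158 CPM, UNC5 values of 244, 248 and 246 CPM and PATR1 values of 308, 319 and 320.1 CPM. egg-2 had WT values of 81.1, 75.9 and 82.2 CPM, UNC5 values of 127, 129 and 123 CPM and PATR1 values of 164, 165 and 165 CPM. Neither gene showed any overlap between groups. Their log2 fold changes in UNC5 were 0.67 ± 0.033 and 0.66 ± 0.033, and in PATR1 1.02 ± 0.033 and 1.05 ± 0.033 (largest edgeR adjusted p of these 4 tests 3.6e-18). The ratio of egg-1 to egg-2 counts was 1.95 ± 0.15 in WT, 1.95 ± 0.0488 in UNC5 and 1.92 ± 0.032 in PATR1, with overlap between all groups (exact two-sided permutation p = 0.9 for each mutant group against WT and 0.6 between them).

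egg-3 (WBGene00009701, chromosome II, 10882408 to 10884441, minus strand) encodes a cortical scaffold protein of the phosphatase-like family, which holds chitin synthase and the kinase MBK-2 at the oocyte surface. It had WT values of 57.4, 58.2 and 58.3 CPM, UNC5 values of 96.7, 103 and 109 CPM and PATR1 values of 131, 132 and 129 CPM. The UNC5 libraries were spread more widely than those of the other groups and still overlapped neither. The log2 fold change was 0.83 ± 0.036 in UNC5 and 1.17 ± 0.036 in PATR1 (edgeR adjusted p = 8.2e-20 and 7.5e-24).

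egg-4 (WBGene00020652, chromosome I, 3932210 to 3934813, plus strand) and egg-5 (WBGene00020035, chromosome I, 4168984 to 4171589, minus strand) are close copies that encode catalytically inactive phosphatase-like proteins, which bind MBK-2 and keep it from its targets until the egg is activated. egg-4 had WT values of 48.5, 54.3 and 51.04 CPM, UNC5 values of 76.4, 77.4 and 76.5 CPM and PATR1 values of 96.2, 94.9 and 95.8 CPM. egg-5 had WT values of 46.3, 52.0 and 50.8 CPM, UNC5 values of 70.6, 73.1 and 70.3 CPM and PATR1 values of 99.9, 103 and 106 CPM. Reads that fit both copies equally well are counted for neither gene, so the level of each is a lower limit and the split between them is uncertain. Over all genes, reads that fit several places made up 4.69% to 4.96% in WT, 3.57% to 3.63% in UNC5 and 3.12% to 3.16% in PATR1. The bearing of this difference on the 2 copies was not tested.

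In UNC5 the log2 fold change was 0.58 ± 0.037 for egg-4 and 0.52 ± 0.039 for egg-5, and in PATR1 it was 0.90 ± 0.036 and 1.05 ± 0.038 (largest edgeR adjusted p of these 4 tests 1.3e-13). The balance of the copies, among reads counted for only 1 of them, differed between the groups. The ratio of egg-4 to egg-5 counts was 1.03 ± 0.0228 in WT, 1.08 ± 0.0151 in UNC5 and 0.93 ± 0.0303 in PATR1, with no overlap between any 2 groups (exact two-sided permutation p = 0.1 for each pair, the smallest possible). egg-5 had the largest step of the 10 genes between the mutant groups, 1.44-fold (log2 fold change 0.53 ± 0.038, edgeR adjusted p = 5.4e-14), against 1.24-fold for egg-4 (0.32 ± 0.036, edgeR adjusted p = 1.9e-09).

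mbk-2 (WBGene00003150, chromosome IV, 13009158 to 13035961, plus strand) encodes the DYRK-family kinase that phosphorylates maternal proteins such as OMA-1 and MEI-1 after fertilization. It had WT values of 282, 279.5 and 278 CPM, UNC5 values of 382, 377 and 368 CPM and PATR1 values of 438, 425 and 423 CPM. It had the smallest change of the 10 genes in all 3 comparisons, with a log2 fold change of 0.43 ± 0.031 in UNC5, 0.62 ± 0.031 in PATR1 and 0.19 ± 0.031 between the mutant groups (edgeR adjusted p = 6.9e-14, 3.7e-18 and 1.9e-06). With 14 annotated transcripts, it has the most of the members, and the counts do not part these transcripts.

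In the test across all genes, all 10 members rose in UNC5, where 49.8% of tested genes rose, and none passed 2-fold, which 7.09% of tested genes did. In PATR1 all 10 rose, where 38.7% of tested genes rose and 44.9% fell, and 8 of the 10 passed 2-fold, against 6.02% of tested genes, with egg-4 and mbk-2 below it. Between the mutant groups all 10 were higher in PATR1, as were 37.8% of tested genes, beside 40.9% that were lower, with none past 2-fold (background 9.46%). The median log2 fold change of the 10 genes was 0.69 in UNC5, 1.05 in PATR1 and 0.33 between the mutant groups, beside 0.16, -0.11 and -0.04 for all tested genes. These comparisons share libraries and are not independent of each other. Of all genes called in UNC5, 64.9% were higher, a share that was 49.8% when only WT and UNC5 libraries were fitted and 47.7% without the low-count filter. The count past 2-fold in PATR1 depended on scaling: it was 5 with relative log expression scaling and 2 with unscaled library sizes. Close to the threshold lay egg-1, egg-2, egg-5, cbd-1, cpg-2 and cpg-1, with log2 fold changes of 1.02 to 1.11. On the rise itself, 7.85% of all tested genes had a larger log2 fold change than chs-1 in UNC5 and 25.9% a larger one than mbk-2. In PATR1 these shares were 3.92% and 18.7%.

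**Figure D2:**
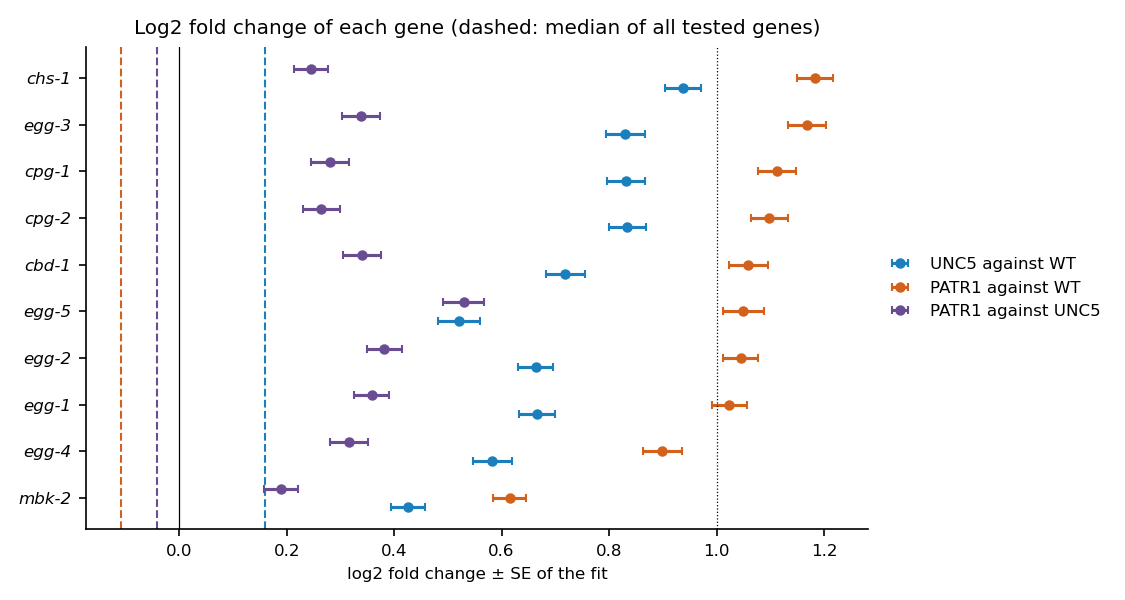
Log2 fold change ± SE of the fit for each of the 10 genes, ordered by the change in PATR1 against WT, with 1 colour a comparison. Dashed lines mark the median of all tested genes (0.16, -0.11 and -0.04) and the dotted line 2-fold; mbk-2 has the lowest point of each colour, and chs-1 the highest against WT.

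Not all members moved to the same extent. Each gene was set against the mean log2 count of the other 9 in the same library, a measure that library scaling cannot change. On this scale chs-1 was higher by 0.26 in UNC5 and by 0.18 in PATR1 than in WT. mbk-2 fell by 0.31 and 0.46, and egg-4 fell by 0.13 and 0.14. cpg-1, cpg-2 and egg-3 were higher by 0.15, 0.15 and 0.14 in UNC5 and by 0.10, 0.08 and 0.16 in PATR1. None of these 6 genes overlapped with WT in either mutant group (exact two-sided permutation p = 0.1 for each, the smallest possible). How many of all tested genes would do so on this scale was not computed. In CPM, 50.4% of tested genes lay above WT and 27.5% below it without overlap in UNC5, and 38.8% and 45.2% in PATR1. egg-5 was lower by a log2 difference of -0.20 in UNC5 without overlap and overlapped with WT in PATR1 (0.03), whereas egg-2 overlapped with WT in both groups. cbd-1 overlapped with WT in UNC5 (0.02) and was higher without overlap in PATR1 (0.04), while egg-1 was lower without overlap in UNC5 (-0.04) and overlapped in PATR1.

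Levels of different genes were compared per kilobase of exon. In WT, cpg-1 was highest with 500.3 ± 15.0 CPM per kilobase, then cpg-2 with 442 ± 14.7 and cbd-1 with 227 ± 6.44. egg-1 followed with 86.5 ± 3.83, mbk-2 with 57.8 ± 0.46, chs-1 with 45.7 ± 1.57 and egg-2 with 45.2 ± 1.89 CPM per kilobase. egg-3 had 32.3 ± 0.28, egg-4 21.7 ± 1.23 and egg-5 21.03 ± 1.27 CPM per kilobase. The genes of the secreted layers thus stood above those of the cortex, with 23.8 ± 0.932 times as much cpg-1 as egg-5 in WT. Within WT, chs-1 and egg-2 did not differ beyond their spread, nor did egg-4 and egg-5, while the libraries of all other neighbours in the order were apart.

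The first 4 genes kept their order in the mutant groups, and egg-3 stayed 8th. chs-1 stood above mbk-2 in UNC5, with 87.6 ± 2.17 against 77.6 ± 1.46 CPM per kilobase, and in PATR1, with 104 ± 1.37 against 88.5 ± 1.74. In PATR1 egg-2 (93.2 ± 0.521) also passed mbk-2, and egg-5 (43.5 ± 1.31) passed egg-4 (40.5 ± 0.277). The place of mbk-2 depended on its length: per kilobase of its longest transcript it had 103.8 ± 1.95 in UNC5 and 118.4 ± 2.33 in PATR1 and stayed above chs-1 in all 3 groups.

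**Figure D3:**
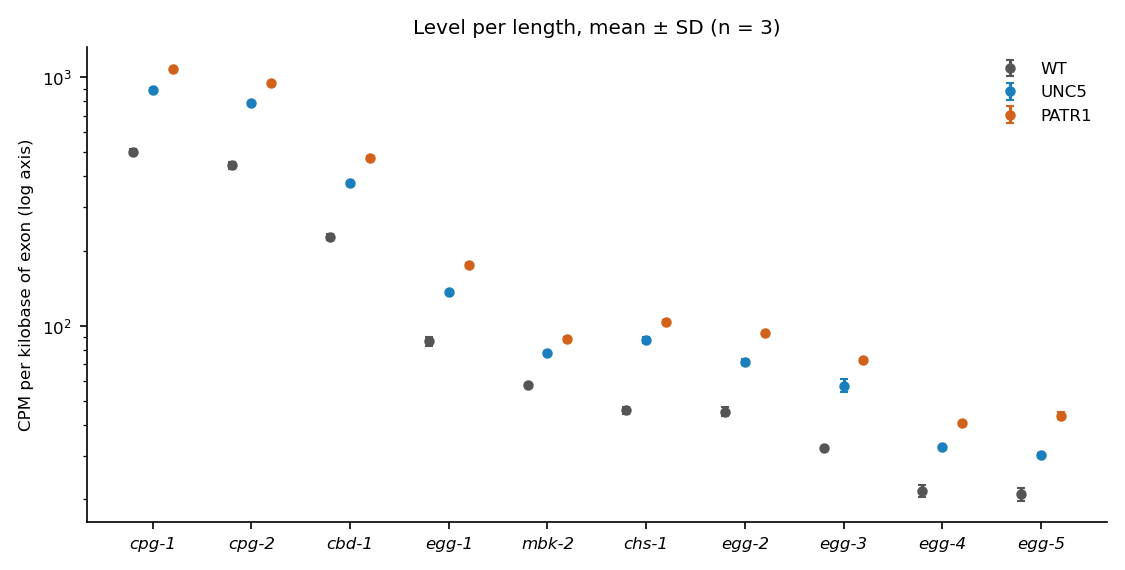
Level of each gene in CPM per kilobase of exon on a log axis, mean ± SD of 3 libraries for each group, ordered by the level in WT. cpg-1, cpg-2 and cbd-1 stand above the rest in every group, and egg-4 and egg-5 are lowest, at 21.7 ± 1.23 and 21.03 ± 1.27 CPM per kilobase in WT.

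The members' rise was set beside that of other oocyte transcripts. In RNA of whole animals, more oocytes and more RNA per oocyte cannot be told apart. All 12 oocyte markers, among them rme-2, the yolk receptor gene, and the RNA-binding protein genes spn-4 and pos-1, rose in both mutant groups, with median log2 fold changes of 0.65 in UNC5 and 1.01 in PATR1. Between the mutant groups 10 of the 12 were higher in PATR1 and 2 did not pass (median 0.34). Their summed level was 2217 to 2311 (WT), 3664 to 3692 (UNC5) and 4500.1 to 4588 CPM (PATR1), and none was at 0. Of these markers pos-1 went from 175 ± 2.39 CPM in WT to 361 ± 16.4 CPM in UNC5 and 427 ± 8.57 CPM in PATR1. nos-2, a germline RNA-binding protein gene, went from 30.9 ± 0.852 CPM to 84.4 ± 1.01 CPM in UNC5 and 84.4 ± 5.15 CPM in PATR1.

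Taken relative to the summed counts of the 12 markers in the same library, the 10 genes changed little on the median, by a log2 difference of -0.003 in UNC5 and 0.05 in PATR1 against WT, and by 0.02 between the mutant groups. chs-1 was above WT on this scale, at 8.51%, 8.64% and 8.76% of the marker sum in WT, 10.2%, 10.5% and 10.01% in UNC5, and 9.84%, 9.92% and 9.58% in PATR1. mbk-2 was below WT, at 12.7%, 12.1% and 12.1% in WT, 10.3%, 10.2% and 10.05% in UNC5, and 9.56%, 9.43% and 9.22% in PATR1. Neither overlapped with WT in a mutant group, and both were lower in PATR1 than in UNC5.

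Against WT, 4 genes in UNC5 (chs-1, cpg-1, cpg-2 and egg-3) and 5 in PATR1 (the same and cbd-1) were higher than the marker sum without overlap. Lower without overlap were 3 in UNC5 (egg-4, egg-5 and mbk-2) and 2 in PATR1 (egg-4 and mbk-2), and 3 in each overlapped. Shares of all tested genes on this scale were not computed. In CPM, 50.4% of tested genes lay above WT and 27.5% below it without overlap in UNC5, and 38.8% and 45.2% in PATR1. The smallest exact two-sided permutation p was 0.1, the least that 3 against 3 libraries allow. Another reference gave other values: relative to 14 general germline markers, the median of the 10 genes was 0.75 in UNC5 and 0.41 in PATR1 against WT, and -0.37 between the mutant groups. Those germline markers, genes of P granules, meiotic chromosomes and germ cell RNA-binding proteins, stood at a summed 3809.99 to 3908 (WT), 3662 to 3724 (UNC5) and 5873 to 6189 CPM (PATR1). In UNC5 4 of the 14 rose, 5 fell and 5 did not pass (median 0.01, which lay below 0 at -0.09 with relative log expression scaling and at -0.04 with unscaled library sizes). In PATR1 all 14 rose (median 0.65). The helicase gene glh-1 fell in UNC5, from 445 ± 11.4 CPM to 287 ± 8.35 CPM, and rose in PATR1, to 588 ± 8.89 CPM.

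**Figure D4:**
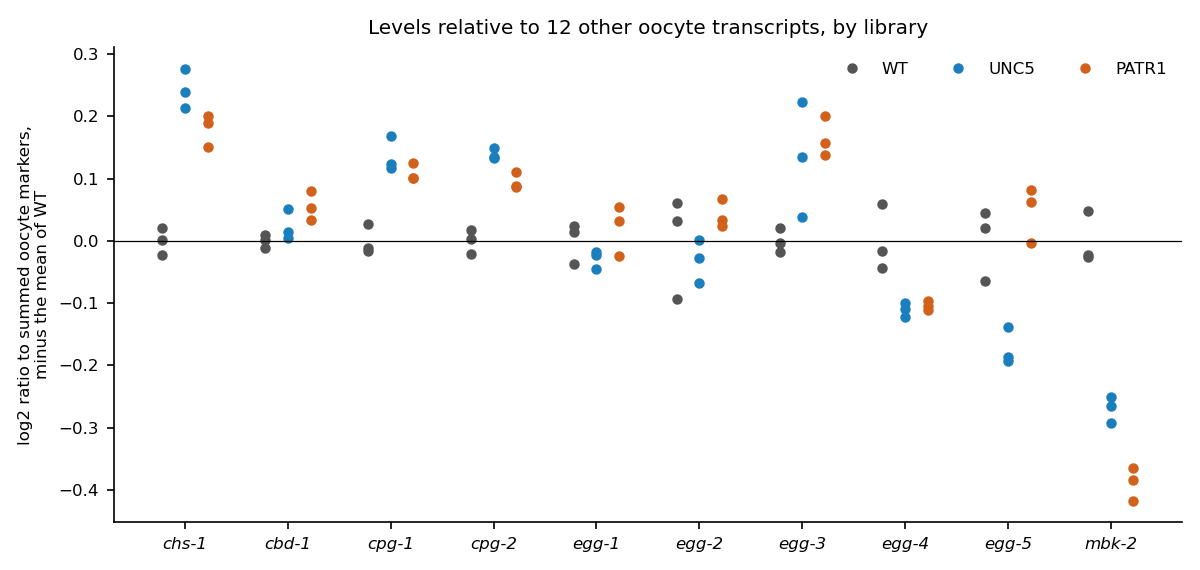
Log2 ratio of each gene's counts to the summed counts of 12 other oocyte markers in the same library, minus the mean of the WT libraries; each point is 1 library. chs-1, cpg-1, cpg-2 and egg-3 lie above WT in both mutant groups, egg-4 and mbk-2 below, with mbk-2 lowest in PATR1 (a mean difference of -0.39).

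Other genes that the shell needs moved mostly in the same direction. As a background for the lists from here on, 49.8% of all tested genes rose in UNC5. Of the genes called there, 64.9% were higher. In PATR1 38.7% of all tested genes rose and 44.9% fell against WT, and 37.8% were higher and 40.9% lower than in UNC5. Whether the counts of a list differed from these shares was not tested. Of 13 genes of the vitelline layer and the lipid permeability barrier, 11 rose and 1 fell in UNC5 (median log2 fold change 0.33), and 10 rose and 3 fell in PATR1 (median 0.78), 4 of them more than 2-fold higher. From UNC5 to PATR1, 10 were higher and 2 lower (median 0.23). perm-2 and perm-4, which encode vitelline layer proteins that work with CBD-1, rose with smaller fold changes than cbd-1, a difference that was not tested: perm-4 went from 855 ± 23.5 CPM in WT to 1069 ± 33.2 CPM in UNC5 and 1483 ± 7.83 CPM in PATR1. dgtr-1, an acyltransferase gene of the permeability barrier, rose from 18.7 ± 1.12 CPM to 31.4 ± 0.978 CPM and 43.1 ± 1.44 CPM. cyp-31A2, a cytochrome P450 gene with a near-identical copy, cyp-31A3, rose from 38.7 ± 0.925 CPM to 60.2 ± 0.719 CPM and 78.7 ± 1.27 CPM. pod-2, the acetyl-CoA carboxylase gene that also serves fat synthesis in the body, fell from 679.5 ± 24.4 CPM to 455 ± 3.34 CPM and 449 ± 13.7 CPM.

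Of 16 genes that make the sugars for chitin and chondroitin, 14 rose and 1 fell in UNC5 (median 0.37), and 13 rose and 2 fell in PATR1 (median 0.65). In PATR1 against UNC5, 13 were higher and 2 lower (median 0.24). gna-2, which makes N-acetylglucosamine phosphate for eggshell chitin, rose 2.07-fold in UNC5 and 2.21-fold in PATR1, close to chs-1. gfat-1, the first enzyme of that route, rose from 329 ± 14.4 CPM to 629.7 ± 1.86 CPM and 707 ± 7.64 CPM, and gfat-2 from 226 ± 1.53 CPM to 345 ± 7.87 CPM and 447 ± 2.13 CPM. sqv-5, the chondroitin synthase gene, rose 1.25-fold in UNC5 and 1.68-fold in PATR1. gpi-1, a gene of general sugar metabolism, fell in both groups, to 0.936 and 0.870 of its WT level.

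Genes for other chitin-binding proteins and chitin enzymes, of which 10 were matched and tested, did not share one direction. Nor did all tested genes, of which 49.8% rose in UNC5, and 38.7% rose and 44.9% fell in PATR1. The mix of directions thus does not set this list apart. In UNC5 6 rose and 4 fell (median 0.27), and in PATR1 5 rose and 5 fell, with a median of 0.02 that lay below 0 with relative log expression scaling (-0.03) and with unscaled library sizes (-0.10). Set against UNC5, PATR1 had 2 higher and 6 lower (median -0.16). cpg-3, another chondroitin proteoglycan gene, rose from 149 ± 2.604 CPM in WT to 268 ± 7.51 CPM in UNC5 and 314 ± 5.76 CPM in PATR1. cpg-4 rose 1.55-fold and 1.94-fold, and cpg-8 2.30-fold and 2.03-fold. cpg-7 fell from 122 ± 4.65 CPM to 79.4 ± 0.245 CPM and 64.95 ± 2.702 CPM, and the chitinase gene cht-4 from 14.5 ± 0.366 CPM to 6.41 ± 0.594 CPM and 4.29 ± 0.183 CPM. The second chitin synthase gene, chs-2, which serves the pharynx, was also lower, with 28.2 ± 0.0495 (WT), 23.8 ± 1.01 (UNC5) and 21.6 ± 1.64 CPM (PATR1).

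Of 31 partners in egg activation and the end of meiosis, 26 rose and 4 fell in UNC5 (median 0.40), and 26 rose and 4 fell in PATR1 (median 0.77), 8 of them more than 2-fold higher. Compared with UNC5, PATR1 had 27 higher and 1 lower (median 0.35). MBK-2 targets were among those that rose: oma-1 rose from 125 ± 0.708 CPM to 177 ± 3.30 CPM in UNC5 and 229 ± 1.48 CPM in PATR1, and mei-1, the katanin gene of the meiotic spindle, stood 1.46-fold and 1.89-fold higher. oma-2 rose 1.81-fold and 2.31-fold, the cyclin B gene cyb-3 1.78-fold and 2.14-fold, and memi-3, a gene of the step from meiosis to mitosis, 1.68-fold and 2.22-fold. The caveolin gene cav-1 rose from 5.80 ± 0.539 CPM to 15.9 ± 0.631 CPM and 18.2 ± 0.556 CPM. sep-1, the separase gene needed for cortical granule release, was highest in PATR1, with 107 ± 2.13 (WT), 115 ± 2.30 (UNC5) and 181 ± 8.75 CPM (PATR1).

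The 4 partners that fell were spe-11, cul-3, gsk-3 and rab-11.1 in UNC5, and spe-11, gsk-3, rab-6.2 and rab-11.1 in PATR1. Apart from spe-11 the log2 fold changes lay between -0.24 and -0.12 in the group where each gene fell. cul-3 rose in PATR1 (0.31) and rab-6.2 rose in UNC5 (0.29). spe-11 encodes an activating factor that the sperm brings into the egg. Its level fell from 25.6 ± 1.00 CPM in WT to 5.16 ± 0.502 CPM in UNC5 and 15.2 ± 1.301 CPM in PATR1 (log2 fold change -2.30 ± 0.069 and -0.76 ± 0.057, edgeR adjusted p = 4.9e-24 and 1e-13). Sperm markers moved with it: all 15 fell in UNC5 (median -2.24), 14 of 15 fell in PATR1 and 1 did not pass (median -0.51), and all 15 were higher in PATR1 than in UNC5 (median 1.55). Their summed level was 669 to 705 (WT), 149 to 156 (UNC5) and 494 to 499.9 CPM (PATR1), with none at 0 in all libraries. gsp-4, a sperm phosphatase gene, stood at 63.5 ± 0.457 (WT), 12.6 ± 0.405 (UNC5) and 36.3 ± 1.61 CPM (PATR1). The eggshell genes and the sperm genes thus went in opposite directions from WT in both mutant groups. Between the mutant groups they went the same way, and the part of sperm content or of stage in the members' rise was not tested.

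**Figure D5:**
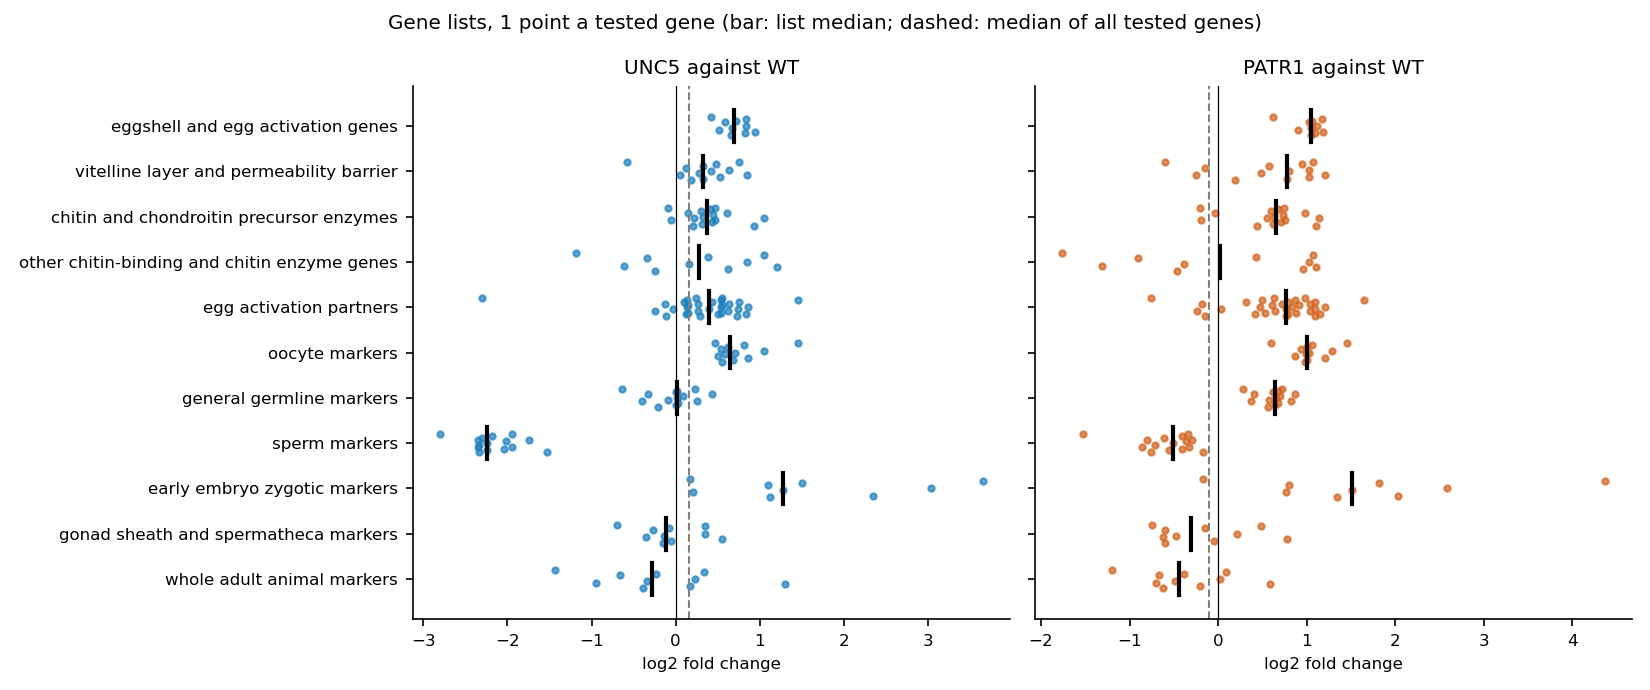
Log2 fold change against WT of the tested genes of each list, 1 point a gene, for UNC5 (left) and PATR1 (right); black bars are list medians and the dashed line the median of all tested genes (0.16 and -0.11). The 10 eggshell and egg activation genes (medians 0.69 and 1.05) intermix with the oocyte markers (0.65 and 1.01), and the sperm markers (-2.24 and -0.51) lie below 0.

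Markers of other cells were checked because whole animals also hold embryos and the somatic gonad. Early embryo genes that the zygote itself transcribes were near the detection limit, with a summed level of 10.9 to 11.3 (WT), 16.4 to 18.2 (UNC5) and 17.3 to 17.98 CPM (PATR1) for 17 genes. Only 9 of the 17 had enough counts to be tested. Of these 8 rose in UNC5 (median log2 fold change 1.28) and 7 in PATR1 (median 1.51, 1 fell there). No list gene was at 0 in all libraries. The endoderm genes med-1, med-2 and end-1 were at 0.258 CPM or less in each library, while tbx-33 went from 1.97 ± 0.0752 CPM to 4.19 ± 0.432 CPM and 5.57 ± 0.471 CPM. elt-7, which intestinal cells of adults also express, had the highest level of the list in each group, with 7.71 ± 0.267 CPM in WT. This gene alone thus made up most of the list's sum in WT. Markers of the gonad sheath and spermatheca had summed levels of 953 to 981 (WT), 945 to 964 (UNC5) and 928 to 955 CPM (PATR1). Of its 10 genes, 3 rose and 5 fell in UNC5 (median -0.11) and 2 rose and 5 fell in PATR1 (median -0.31). Most of that sum was fln-1, a filamin gene, with 717 ± 13.8 CPM in WT, which did not pass in either group. ceh-18, plc-1 and ipp-5 fell in PATR1, with log2 fold changes of -0.75, -0.62 and -0.60. The innexin genes inx-8 and inx-9 of the sheath were the 2 that rose in PATR1, by 1.40-fold and 1.71-fold. Of the 10 whole-animal markers, 4 rose and 6 fell in UNC5 (median -0.29), and 1 rose and 7 fell in PATR1 (median -0.44). Their part in the members' rise was not tested.

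On the opposite strand, 8 members had enough counts to be tested. All 8 were higher there in UNC5 than in WT, where 68.3% of 6735 tested genes were higher and 6.68% lower, and 7 were higher in PATR1, where 47.1% were. From UNC5 to PATR1 7 were lower, as were 59.0% of the tested genes, beside 6.61% that were higher. With the strands added together, all 10 members kept their calls in all 3 comparisons.

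The 10 genes followed each other closely over the 9 libraries. The Pearson correlation of each gene's log2 CPM with the mean of the other 9 ran from 0.97 for egg-5 and 0.99 for chs-1 to 0.999 for cbd-1. These values mostly describe the 3 group levels, since the libraries fall into 3 groups. Among the 17502 other tested genes, 403 (2.30%) had a correlation of 0.99 or more with the mean pattern of the 10. The 5 most alike were pir-2, tdc-1, rme-2, bath-41 and elli-1, with r from 0.9987 to 0.9992. rme-2 went from 312 ± 10.01 CPM in WT to 509 ± 9.99 CPM in UNC5 and 628 ± 7.94 CPM in PATR1. tdc-1, the tyrosine decarboxylase gene, went from 83.3 ± 1.61 CPM to 133 ± 0.643 CPM and 172 ± 1.85 CPM. pir-2 went from 77.8 ± 1.81 CPM to 107 ± 0.894 CPM and 125 ± 1.6 CPM.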

How the data were processed

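Per the submitters' processing notes, reads were checked with FastQC 0.11.9, trimmed with cutadapt 3.5 and aligned to WBcel235 with STAR 2.7.11b; the design text names WS288. The deposited values are raw counts per gene in 9 libraries, with no normalization; the reverse-strand column was taken, since its sum exceeded the forward one 41.9- to 57.1-fold. Positions and exon lengths came from the Ensembl annotation of WBcel235, which lacked 8 of the 46926 identifiers. edgeR 4.0.16 in R 4.3.3 (filterByExpr, TMM, robust quasi-likelihood, all 9 libraries, Benjamini-Hochberg over 17512 genes) gave the fold changes; "rose", "fell", "higher" and "lower" for lists mean an adjusted p below 0.05. Folds are ratios of mean CPM. The common biological coefficient of variation was 3.14%, and pairs of libraries of 1 group differed by 1.44 to 2.24 times the median chi-square of counting error.

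The members and lists were chosen with earlier results of these data known. Named genes were all members, up to 4 per list and comparison with the smallest adjusted p, and the 5 most alike in pattern; mei-1, chs-2, gpi-1, med-1, med-2, end-1, cul-3, gsk-3, rab-11.1, rab-6.2, fln-1 and unc-5 were named outside the rule, after their values were seen. oma-1, oma-2, puf-3, cpg-3 and spe-11 each stand in 2 lists, and 6 list symbols matched no gene. The pipeline was tested on simulated data. Alternatives were other scalings and filters, DESeq2 1.42.0, unstranded counts, fits of 6 libraries, a replicate block, and leaving out each library. Same-numbered libraries did not deviate together (correlations -0.0488 to 0.0459), so numbers were not taken as pairs. Python 3.11.15 read the files and drew the plots. No sequences are printed.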

Additional observations from a re-analysis of the deposited data

Results flagged for a closer look

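Reads on the strand opposite to the gene, which the comparisons do not use, were looked at after the values were seen. As a share of all reads of the gene on both strands, they were above every WT library in all UNC5 libraries for 8 of the 10 members, and in all PATR1 libraries for 6. The same held for 2513 of 2922 abundant genes (86.0%) in UNC5 and for 1435 (49.1%) in PATR1, so these counts are near the background. 1 of the members in both groups is egg-5, which had no such read in WT. It had only 7, 1 and 7 such reads in UNC5 and 2, 1 and 5 in PATR1, too few to be tested. For cpg-1 they made up 0.153% in WT, 2.30% in UNC5 and 0.70% in PATR1. For chs-1 they were 1.47%, 4.44% and 2.74%, for cpg-2 0.186%, 1.16% and 0.433%, for cbd-1 0.0978%, 0.716% and 0.207%, and for mbk-2 0.134%, 1.29% and 0.428%. In UNC5 alone this held for egg-2, with 0.101% in WT and 0.489% in UNC5, and for egg-3, with 0.0473% and 0.267%. For egg-3 these were few reads, 2, 1 and 2 in WT and 14, 9 and 11 in UNC5. Shares of chs-1 were the highest of the members in each group, although no annotated gene lies on its other strand; egg-1, egg-3 and mbk-2 have one that overlaps by 42, 21 and 6 bases.

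The opposite-strand counts of cpg-1 were 103, 54 and 106 in WT, 1766, 1368 and 1841 in UNC5, and 726, 406 and 866 in PATR1 (log2 fold change 4.78 ± 0.33 in UNC5 and 3.32 ± 0.32 in PATR1, edgeR adjusted p = 1.1e-05 and 0.00018). Of 8 members with enough such counts, all 8 were higher in UNC5, where 68.3% of 6735 tested genes were, and 7 in PATR1, where 47.1% were. The shift ran over most abundant genes: among 2922 genes of at least 40 CPM with no annotated gene on the other strand, the median share was 0.0423% to 0.0741% in the WT libraries, 0.371% to 0.514% in UNC5 and 0.116% to 0.165% in PATR1. Reads that fit no gene on the sequenced strand made up 0.582% to 0.647% in WT, 1.11% to 1.32% in UNC5 and 0.678% to 0.748% in PATR1. That class takes in reads on the opposite strand of a gene, so it is not a separate observation. The cause of the shift was not tested. For egg-1 the share in PATR1 (0.217%) lay below WT (0.34%) without overlap.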

How the results depend on the processing

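All 510 recomputed fold changes of the 10 genes (17 settings, 3 comparisons) kept their direction and an adjusted p below 0.05. Their median ran from 0.52 to 0.71 in UNC5, from 0.93 to 1.07 in PATR1 and from 0.26 to 0.48 between the mutant groups, and 10 of 10 were called throughout, also with the replicate number as a block (8 past 2-fold in PATR1, as without it). The count past 2-fold in PATR1, 8, was 5 with relative log expression factors, 2 with library sizes alone, 3 with at least 5 CPM in 3 libraries and 5 with DESeq2, and 6 to 8 when 1 library was left out. With at least 5 CPM in 3 libraries, 330 in place of 1054 of all genes passed 2-fold upwards in PATR1. The share of higher among all called genes in UNC5, 64.9%, was 49.8% with only the 6 libraries compared, 47.7% without the low-count filter and 55.3% with relative log expression factors, while the members stood 0.51 to 0.55 above the median of all genes in each setting. Relative to general germline markers in place of oocyte markers, the median difference of the members was 0.75, 0.41 and -0.37; the cause was not tested.

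Medians of 4 lists changed sign. For general germline markers in UNC5 (0.01) the median was -0.0918 with relative log expression factors, -0.0413 with library sizes alone, -0.16 without the filter, -0.0526 with at least 5 CPM, -0.0919 with DESeq2, -0.14 with only 6 libraries and -0.0101 to 0.0197 with 1 library left out. For other cpg and chitin enzyme genes in PATR1 (0.02) it was -0.0301 and -0.10 with those scalings, and -0.0881 with at least 5 CPM. DESeq2 gave -0.0299, and leaving 1 library out gave -0.0121 to 0.043. For early embryo markers in PATR1 (1.51) it was -0.28 with at least 5 CPM. Of that list only elt-7 exceeded 5 CPM in every group, and it had -0.17 in PATR1 in the main fit. The value of -0.28 thus does not describe the list as a whole. Between the mutant groups (-0.16) the list median was 0.12 with only 6 libraries and -0.13 to 0.17 with 1 library left out. For sheath markers between the mutant groups (-0.06) it was 0.0861 without the filter. The cause was not tested. Of the 17 zygotic embryo markers, 8 were too low to be tested 1 by 1.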
